A study of Bos taurus with 16 samples.

Results

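The primitive endoderm, or hypoblast, is the sheet of cells that covers the inner cell mass of the blastocyst on the side of the cavity. It separates from the epiblast when FGF signals, carried by the RAS and MAPK cascade, tip inner cells towards the transcription factor GATA6 and away from NANOG. In cattle the sheet then spreads under the trophectoderm, lays down a basement membrane of type IV collagen and laminin, and contributes to the yolk sac. The genes followed here were 9 of its usual markers, namely the transcription factors GATA6, GATA4, SOX17, SOX7, HNF4A and FOXA2, the receptor PDGFRA and the basement membrane chains COL4A1 and LAMA1. They were taken by gene symbol, with each locus entered once, and are 9 of the 22358 loci in the count tables. That rule uses no measured value, but the list was chosen with earlier results of these data known.

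The data were RNA-Seq read counts per gene of 16 pools of expanded Holstein blastocysts, 2 pools from each of 8 lactating cows. The 4 cows of the control treatment (cows 1 to 4) ate a basal diet, while the 4 cows given the methionine-rich treatment (cows 5 to 8) ate that diet with rumen-protected methionine, from calving until embryo recovery. All cows of both groups were superovulated and inseminated, and the cows whose embryos were sequenced were picked for the number and quality of those embryos. Pools are named by treatment, cow and pool, so that M6.1 is the first pool of cow 6. The study's methods describe embryos flushed from the donors, whereas the tissue label in the repository reads "IVF embryos", and this difference was not resolved. Methionine-rich pools mostly held more blastocysts than control pools, and several had amplified RNA of a lower quality number, and the part of either in the results was not tested. The cows' ages were not given in the sources used here, and the RNA was amplified over repeated linear rounds before sequencing. The pools of 1 cow shared a mother and were not independent, so cow means were compared beside the pools.

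The total count was between 5624126 and 7826542 in 15 pools and 1745048 in pool C3.2, which the study left out because few of its reads fell on annotated exons and which is given separately here. Levels are in CPM (a gene's counts per 1000000 counts of its pool), where 3 counts corresponded to 0.383 to 0.533 CPM in the 15 pools. CPM is not divided by gene length, so levels were compared between pools and not between genes. Pool C2.1 stood apart through leukocyte genes, its 11 marker loci (TYROBP, LAPTM5 and the like) summing to 2401 CPM against at most 57.6 CPM in the other 14 pools. In a pool of whole embryos, fewer hypoblast cells and less RNA per hypoblast cell cannot be told apart.

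The question was whether the hypoblast genes differed between embryos of cows on the control and the methionine-rich treatments. None was called different, COL4A1 was 1.65-fold higher and HNF4A 2.70-fold lower in methionine-rich pools without passing the test, and GATA6 and PDGFRA differed by less than the spread between pools. Of the 9 genes, 6 reached the summed CPM of 15 over 15 pools that the test required (GATA6, PDGFRA, COL4A1, LAMA1, HNF4A and FOXA2), while GATA4, SOX17 and SOX7 did not. By the exact test of edgeR, with an FDR under 0.10 and a 2-fold difference as the call, 0 of the 6 were differentially expressed, against 110 of all 10519 tested loci (1.05%). By the quasi-likelihood test of edgeR 0 of 6 were called, against 0 of 10519 (0%). At an unadjusted p under 0.05 the exact test, the quasi-likelihood test and limma voom each named 0 of the 6, against 8.54%, 8.64% and 4% of all tested loci. DESeq2 named 1 of the 6, COL4A1, against 7.42% of all. The median log2 fold change (methionine-rich over control) of the 6 was 0.27, and that of all tested loci was -0.05.

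**Figure D1:**
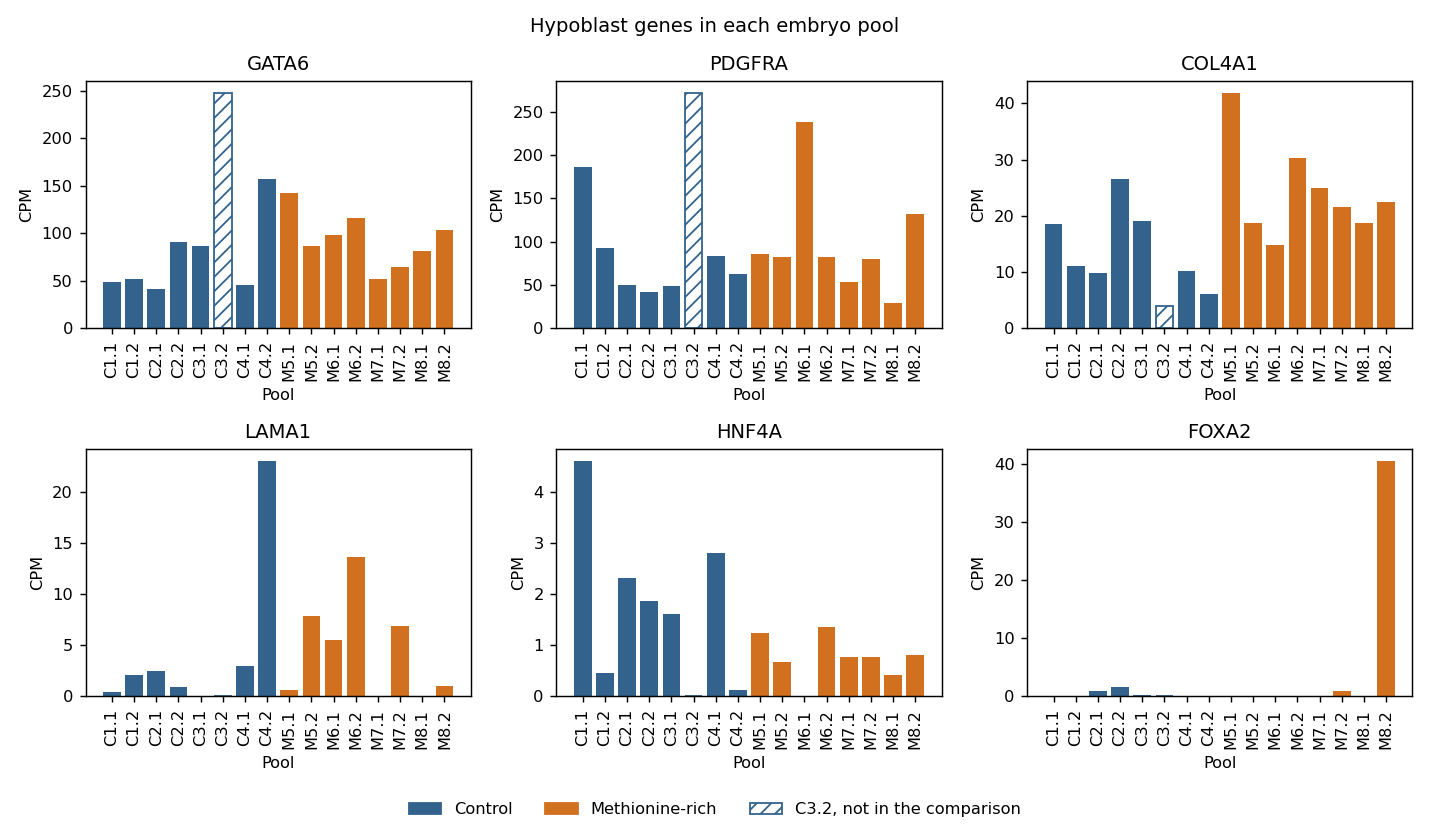
CPM (vertical axis, from 0, scaled separately for each gene) of the 6 tested hypoblast genes in each of the 16 pools, with control pools in blue, methionine-rich pools in orange and pool C3.2 hatched. GATA6, PDGFRA and COL4A1 have a bar in every pool, whereas 1 pool holds 93.2% of the FOXA2 counts and 38.1% of the LAMA1 counts lie in pool C4.2.

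GATA6, the factor that commits inner cells to the hypoblast, was present in every pool. It ranged from 40.9 to 157 CPM in the 7 control pools (median 51.6 CPM), and from 51.9 to 142 CPM in the 8 methionine-rich pools (median 92.1 CPM). All 8 methionine-rich pools lay above the control median and 4 control pools lay below every methionine-rich pool, but the highest of the 15 was a control pool, C4.2, so the groups overlapped. The means were 74.5 ± 41.6 CPM (SD, n = 7) and 93.0 ± 28.9 CPM (SD, n = 8), and the log2 fold change was 0.31 with an FDR of 0.990 by the edgeR exact test. DESeq2 estimated it at 0.33 ± 0.28 (SE), with a 95% interval of -0.21 to 0.88. The cow means ran from 50.0 to 101 CPM among control cows and from 58.0 to 114 CPM among methionine-rich cows, and their means differed by 17.1 CPM (exact permutation test over the 70 assignments of cows, two-sided p = 0.343). With pool C3.2 added the log2 fold change was -0.37.

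The pools of a single cow could differ as much as the treatments did. The higher pool of a cow exceeded the lower by a median of 1.27-fold for GATA6 over the 7 cows with both pools, with a maximum of 3.43-fold in cow 4, where C4.1 stood at 45.8 CPM and C4.2 at 157 CPM. Pool C4.2 was also the highest of the 15 for LAMA1, for the laminin chain LAMB1 at 830 CPM, and for the trophectoderm keratin KRT8 at 2114 CPM. The summed trophectoderm markers were highest there too, at 9718 CPM, against at most 8440 CPM elsewhere. Whether the makeup of that pool has a part in its GATA6 level was not tested.

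PDGFRA, the receptor for PDGF-A that hypoblast precursors carry on their surface, was also present in every pool. It ranged from 42.4 to 186 CPM in control pools (median 62.2 CPM), and from 29.5 to 238 CPM in methionine-rich pools (median 82.2 CPM). The lowest and the highest of the 15 pools were both methionine-rich, M8.1 and M6.1, so that the methionine-rich range enclosed the control range. The means were 80.9 ± 50.0 CPM (SD, n = 7) and 97.9 ± 63.9 CPM (SD, n = 8). The log2 fold change was 0.24 (edgeR exact test, FDR = 1.0), or 0.24 ± 0.42 (SE) with a 95% interval of -0.59 to 1.07 by DESeq2. The cow means differed by 21.1 CPM (exact permutation test, two-sided p = 0.486). The sign of the log2 fold change was not stable, as it was -0.44 with pool C3.2 added, -0.086 without the pools of cow 6 and -0.0047 without the pools of cow 2.

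PDGFRA varied more than GATA6 from pool to pool. The coefficient of variation over the 15 pools was 62.8% for PDGFRA and 41.9% for GATA6. The highest pool was 8.08 times the lowest for PDGFRA and 3.84 times for GATA6. Within cows the PDGFRA ratio exceeded 2-fold in cows 1, 6 and 8, and the highest control pool (C1.1) and the highest methionine-rich pool (M6.1) belonged to cows 1 and 6. Its ligand gene PDGFA, which epiblast cells make, averaged 29.1 ± 23.3 CPM (SD) in control and 34.7 ± 35.4 CPM (SD) in methionine-rich pools, with an exact test FDR of 1.0.

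The factors GATA4 and SOX17, which act after GATA6 in hypoblast maturation, and SOX7, a late endoderm factor, were at or near 0. GATA4 gave 10 counts in all, spread over 7 pools with at most 3 counts in any one. SOX17 and SOX7 each had 0 counts in all 16 pools, which allows up to 0.0282 CPM over the pools summed when 3 counts are taken as the limit for a count of 0. Such limits cover counting error only. With GATA4, SOX17 and SOX7 so low, the name hypoblast rested in these pools on GATA6, PDGFRA and COL4A1, each of which trophectoderm or other cells may also express, and the genes are therefore called hypoblast genes by their list and not by their pattern here.

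HNF4A, a nuclear receptor that drives the later, secretory programme of visceral endoderm, was low and lower in methionine-rich pools. It ranged from 0.129 to 4.62 CPM in control pools (median 1.86 CPM), and from 0 to 1.35 CPM in methionine-rich pools (median 0.763 CPM). These levels correspond to 1 to 35 counts and 0 to 9 counts. No methionine-rich pool reached the control median, yet the groups overlapped because C1.2 had 3 counts and C4.2 had 1. The log2 fold change was -1.43 with an FDR of 0.830 by the edgeR exact test, and -1.46 ± 0.85 (SE) by DESeq2, whose 95% interval of -3.12 to 0.21 included 0.

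Averaged by cow, HNF4A did not overlap between treatments. The control cows 1 to 4 had 2.53, 2.08, 1.62 and 1.47 CPM, and the methionine-rich cows 5 to 8 had 0.950, 0.673, 0.763 and 0.614 CPM. Every control cow exceeded every methionine-rich cow, by 1.17 CPM on average (exact permutation test, two-sided p = 0.0286, the smallest that 4 against 4 cows can give). Among all 10519 tested loci the cow means failed to overlap for 232 (2.21%), and among the 6 hypoblast genes for 2, HNF4A and COL4A1, which lay apart in opposite directions. HNF4A summed to 19.8 CPM over the 15 pools, where 15 was required for testing, and met that level through the control pools, in which it was high. Its difference and its place among the 2 therefore lend no support. For HNF4A the p of the permutation test was 0.0286 with each of the 8 cows left out in turn, again the smallest possible, from fewer assignments. Leaving out a cow cannot make separated cow means overlap, so the order could not be lost in this way. The p was 0.0571 when pool C3.2, with 0 HNF4A counts, was added. The pools of cows 1 and 4 differed 10.3-fold and 21.8-fold, so that 1 pool made up most of each mean.

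**Figure D2:**
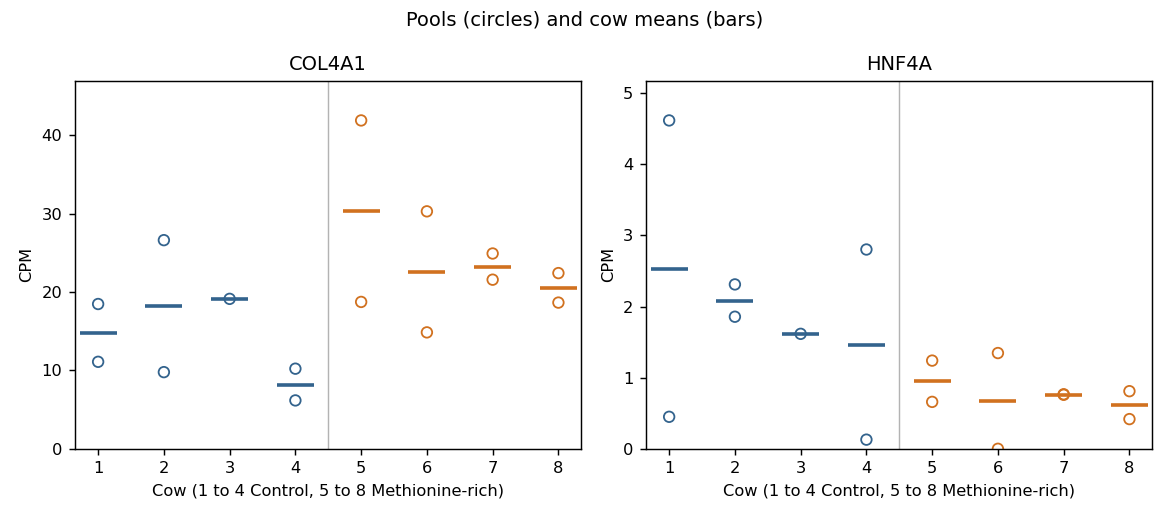
CPM (vertical axis) of COL4A1 and HNF4A by cow (horizontal axis), with circles for pools and bars for the mean of a cow's pools, cows 1 to 4 being control and cows 5 to 8 methionine-rich. The bars of the treatments do not overlap for either gene, COL4A1 being higher and HNF4A lower in methionine-rich cows, while the circles of the treatments overlap for both.

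FOXA2, a forkhead factor of endoderm, was read in few pools and its fold change rested on 1 of them. It was at 0 in 10 of the 15 pools. Pool M8.2 held 300 counts, or 40.5 CPM, and the next highest pool, C2.2, held 10 counts, or 1.55 CPM. The other pool of cow 8 had 0 counts. The edgeR exact test gave a log2 fold change of 3.96 (FDR = 0.733), whereas DESeq2, which replaced an outlying count, gave -1.64 ± 2.97 (SE) and no adjusted p. The cow means differed by 4.84 CPM (exact permutation test, two-sided p = 0.714), and by -0.186 CPM without cow 8.

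COL4A1 encodes the alpha 1 chain of type IV collagen, the network-forming collagen of basement membranes. It was read in every pool. It ranged from 6.17 to 26.6 CPM in control pools (median 11.1 CPM), and from 14.9 to 41.9 CPM in methionine-rich pools (median 22.0 CPM). All 8 methionine-rich pools lay above the control median, 4 control pools lay below every methionine-rich pool and 2 methionine-rich pools lay above every control pool, so the groups overlapped in between. The means were 14.5 ± 7.14 CPM (SD, n = 7) and 24.2 ± 8.52 CPM (SD, n = 8). The log2 fold change was 0.72 by the edgeR exact test (p = 0.132, FDR = 0.814), and the quasi-likelihood test gave an FDR of 0.612. DESeq2 estimated 0.73 ± 0.32 (SE), with a 95% interval of 0.10 to 1.36 that left out 0, an unadjusted p of 0.0236 and an adjusted p of 0.506. That fit took the pools of a cow as independent, so its interval may be too narrow. With the cow as a random effect, limma voom gave COL4A1 an unadjusted p of 0.053 and an FDR of 0.993.

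The cow means of COL4A1 were 14.8, 18.2, 19.1 and 8.20 CPM in control cows 1 to 4 and 30.3, 22.6, 23.2 and 20.5 CPM in methionine-rich cows 5 to 8. Every methionine-rich cow exceeded every control cow, by 9.09 CPM on average (exact permutation test, two-sided p = 0.0286). This order was close at its edge, since control cow 3, here with 1 pool, lay just under methionine-rich cow 8. Without pool C2.1, in which the leukocyte genes stood high and COL4A1 was at 9.78 CPM, cow 2 rose to 26.6 CPM and the p was 0.171. Without cow 4, cow 5 or cow 7 the p was 0.0571, 0.0857 and 0.0571. Over the 12 alternatives tried it ran from 0.0286 to 0.171 and was under 0.05 in 8.

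LAMA1, the laminin alpha 1 chain that joins a beta and a gamma chain in the first embryonic laminin, showed no common direction. It ranged from 0 to 23.0 CPM in control pools (median 2.10 CPM), and from 0 to 13.6 CPM in methionine-rich pools (median 3.20 CPM). C4.2 held the highest value, and C3.1, M7.1 and M8.1 held 0 counts. The log2 fold change was -0.05 (edgeR exact test, FDR = 1.0), and the 95% interval of DESeq2 ran from -2.42 to 2.37, so that a several-fold difference either way lay within it. Without cow 4 the log2 fold change was 1.79, without cow 7 it was 0.088, without cow 8 it was 0.35, and with pool C3.2 added it was 0.14. In the 5 cows with counts in both pools, the higher pool exceeded the lower by 2.50-fold to 14.1-fold.

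**Figure D3:**
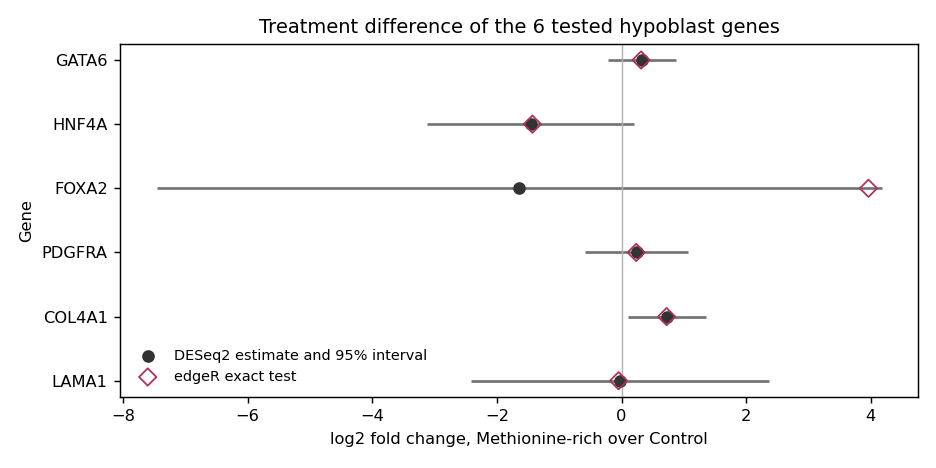
Log2 fold change, methionine-rich over control (horizontal axis), of the 6 tested hypoblast genes, with diamonds for the edgeR exact test and filled circles with lines for the DESeq2 estimate and its 95% interval (7 control and 8 methionine-rich pools). The interval lies wholly above 0 for COL4A1 alone, and the diamond and the circle of FOXA2 lie on opposite sides of 0. The intervals take the pools of a cow as independent and may be too narrow.

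How tightly the pools fixed each gene differed greatly within the list. The biological coefficient of variation, which edgeR estimates as the spread between pools of a treatment beyond counting error, was 0.464 for GATA6, 0.572 for PDGFRA and 0.623 for COL4A1. It was 1.22 for HNF4A, 1.53 for LAMA1 and 2.46 for FOXA2. The median over the 6 was 0.922, beside 0.920 over all tested loci. The pool with most counts held 13.6% of the 15-pool counts of GATA6, 14.7% of those of COL4A1 and 18.3% of those of PDGFRA, but 25.9% for HNF4A, 38.1% for LAMA1 and 93.2% for FOXA2.

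As a sum over the 9 genes, the hypoblast list took 177 ± 55.5 CPM (SD, n = 7) of control pools and 226 ± 81.9 CPM (SD, n = 8) of methionine-rich pools. The ranges, 107 to 258 CPM and 130 to 357 CPM, overlapped over most of their length. Reads of GATA6 and PDGFRA made up 78.5% to 94.3% of the sum, so it mainly restated those 2 genes. Between 4 and 6 of the 9 genes reached 3 counts in any of the 15 pools.

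The hypoblast genes did not rank the pools alike. Spearman's rho over 15 pools, among the 10 pairs of GATA6, PDGFRA, HNF4A, COL4A1 and LAMA1, lay between -0.41, for GATA6 with HNF4A, and 0.43, for GATA6 with COL4A1. GATA6 with PDGFRA had a rho of 0.06. Among 8168 other loci, the pool order most like that of GATA6 was shown by SNX5 (rho = 0.94), TPM4 (0.93) and BRAP (0.92). For COL4A1 it was PUF60 (0.93), SF3B2 (0.86) and TMEM144 (0.84), and for PDGFRA it was UCHL5 (0.84), HIBCH (0.83) and NDUFC2 (0.81). For HNF4A it was VMP1 (0.84), KLHL21 (0.81) and MAGED2 (0.80), and for LAMA1 it was CNO (0.86), TMEM165 (0.80) and IBTK (0.80). These rank correlations describe 15 libraries of like depth, and are the extremes among many loci.

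The partners of COL4A1 and LAMA1 in the basement membrane were read from a list of 29 genes, of which 16 of 32 loci were tested. The exact test called 0 of the 16, in either direction, and their median log2 fold change was 0.04. COL4A2, whose alpha 2 chain pairs with alpha 1 chains in the collagen IV trimer and whose gene neighbours COL4A1 with 0 protein-coding genes between them, was read in fewer pools. It reached 3 counts in 7 of the 15 pools, in 2 control pools at 15.3 and 19.1 CPM and in 5 methionine-rich pools at 1.45 to 19.5 CPM. Its log2 fold change was 0.04 (edgeR exact test, FDR = 1.0), with an SE of 1.50 by DESeq2, and its difference from the COL4A1 change was not tested. Since the counting strand was not stated in the sources used here, reads of overlapping genes on opposite strands could not be separated.

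The laminin chains LAMB1 and LAMC1, which complete the trimer with LAMA1, were read in every pool. LAMB1 averaged 401 ± 216 CPM (SD) in control and 522 ± 160 CPM (SD) in methionine-rich pools, and LAMC1 averaged 51.8 ± 31.3 CPM (SD) and 75.8 ± 43.2 CPM (SD). Their log2 fold changes of 0.43 and 0.56 did not pass the exact test, with FDRs of 0.919 and 0.916, and the cow means overlapped for both. The integrin chain ITGB1, a laminin receptor subunit, and P4HB, a subunit of collagen prolyl hydroxylase, had log2 fold changes of -0.11 and 0.08. The largest differences in this list were those of low genes, ITGA6 at 1.34, COL4A5 at -1.29 and the collagen chaperone SERPINH1 at -1.03, with FDRs of 0.998, 0.995 and 0.916.

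**Figure D4:**
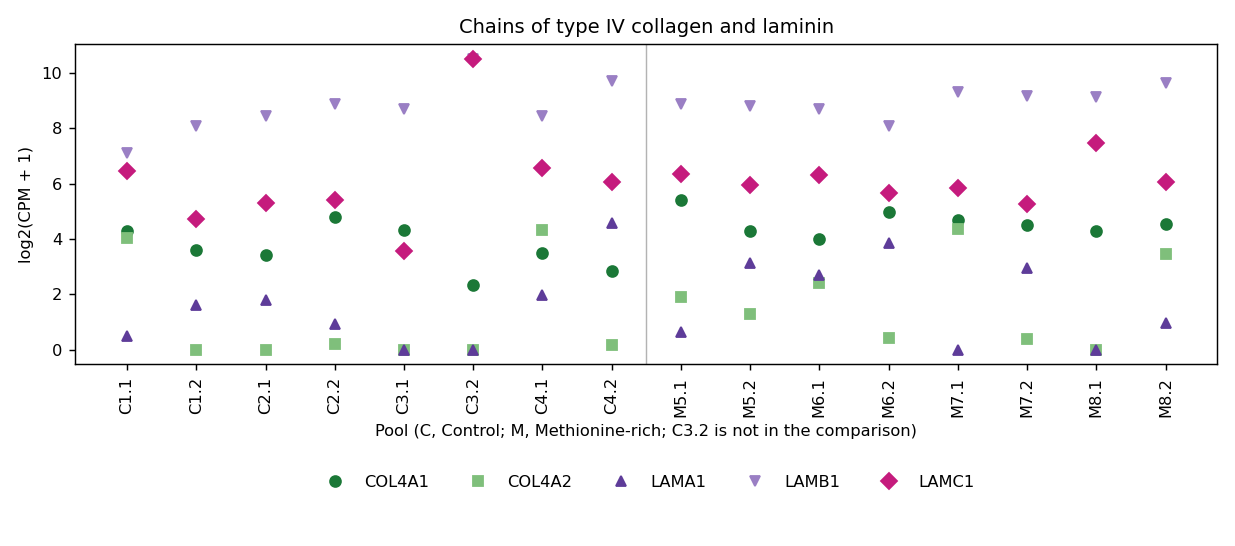
log2(CPM + 1) (vertical axis) of 2 type IV collagen chains and 3 laminin chains in each of the 16 pools (horizontal axis), control on the left of the line and methionine-rich on the right. LAMB1, LAMC1 and COL4A1 are read in every pool, COL4A2 and LAMA1 fall to 0 in some, and pool C3.2 has the highest LAMB1 and LAMC1 (symbols overlaid) with 0 counts of COL4A2 and LAMA1.

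The signalling that acts before GATA6 was read from 29 genes of the FGF and MAPK pathway, of which 28 were found and 21 tested. The exact test called 1 of the 21 higher in control pools and 0 higher in methionine-rich pools, and the quasi-likelihood test called 0. The called gene, FGF2, a ligand, averaged 7.11 ± 12.2 CPM (SD) in control and 0.511 ± 0.945 CPM (SD) in methionine-rich pools (log2 fold change -3.90, exact test FDR = 0.096, quasi-likelihood FDR = 0.312), and 67.8% of its counts lay in pool C4.2. Pool C3.2, not in that comparison, held FGF2 at 5535 CPM, and without pool C2.1 the exact test FDR of FGF2 was 0.122. FGF2 met the level required for testing through the control pools, in which it was high, so its difference lends no support. FGF4, the ligand that epiblast cells send to hypoblast precursors in the mouse, had 0 counts in every pool.

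The receptor FGFR1 and the phosphatase PTPN11, which links FGF receptors to RAS, had cow means that were higher in every methionine-rich than in every control cow. They were 2 of the 21 tested, and over all 10519 tested loci the cow means failed to overlap for 2.21%. FGFR1 was very low, at 0 to 0.264 CPM in control and 0 to 6.48 CPM in methionine-rich pools. It averaged 0.0812 and 2.18 CPM and reached 3 counts in 5 of the 15 pools. FGFR1 therefore met the level required for testing through the treatment in which it was high, so its difference lends no support. Its log2 fold change of 4.50 had an FDR of 0.201 by the exact test. PTPN11 averaged 64.4 ± 34.7 CPM (SD) in control and 127 ± 54.4 CPM (SD) in methionine-rich pools. Its log2 fold change of 0.96 ± 0.38 (DESeq2 SE) had an FDR of 0.356 by the exact test. The ranges over pools overlapped for both, and neither was called. The ligand FGF10 had a log2 fold change of -2.35 (exact test FDR = 0.902). The RAS gene NRAS and the adaptor GRB2 had log2 fold changes of 0.01 and -0.14, and the median of the 21 was -0.08.

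Other genes of the hypoblast and the visceral endoderm numbered 41, of which 40 were found and 19 of 41 loci tested. Of these the exact test called 1 higher in control pools, 0 higher in methionine-rich pools, and the quasi-likelihood test called 0. The called gene, FLRT3, a membrane protein of cell adhesion, had a log2 fold change of -4.59 (exact test FDR = 0.059, quasi-likelihood FDR = 0.323), and 90.0% of its counts lay in pool C2.1, the pool with the leukocyte genes. Without that pool its log2 fold change was -0.03 and it was not called. The rest included FN1, or fibronectin, at 1662 ± 928 CPM (SD) in control and 1847 ± 885 CPM (SD) in methionine-rich pools, CITED2, a transcriptional co-regulator, at 1803 and 1715 CPM, and the endocytic adaptor DAB2 at 325 ± 75.1 CPM (SD) and 314 ± 117 CPM (SD). LRP2, or megalin, a receptor of absorptive endoderm that works with DAB2, had 289 ± 105 CPM (SD) and 323 ± 169 CPM (SD). FN1, DAB2 and LRP2 had log2 fold changes of 0.18, -0.05 and 0.13, each with an exact test FDR of 1.0.

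The list also held genes of later endoderm. The plasma protein genes TTR, AFP, APOA2, APOB and APOE and the factor FOXA1 did not reach the level required for testing, whereas APOA1 did, at up to 4.62 CPM. HHEX and CUBN, the partner of megalin and amnionless, were tested and had log2 fold changes of -2.64 and -2.35, with exact test FDRs of 0.600 and 0.830 and levels of at most 5.94 and 20.9 CPM. The anterior endoderm factor OTX2 had 10.6 ± 6.06 CPM (SD) and 16.7 ± 8.57 CPM (SD), and its log2 fold change of 0.60 did not pass the exact test (FDR = 0.974).

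The other cells of the blastocyst were read from their own markers. Summed epiblast markers took 149 to 267 CPM of control and 143 to 253 CPM of methionine-rich pools, and summed trophectoderm markers 3802 to 9718 CPM and 3079 to 7071 CPM. The exact test called 0 of 7 tested epiblast loci and 0 of 11 tested trophectoderm loci, with median log2 fold changes of -0.28 and -0.39. NANOG, the epiblast factor that opposes GATA6, averaged 13.4 ± 12.0 CPM (SD) in control and 6.84 ± 12.0 CPM (SD) in methionine-rich pools (log2 fold change -0.81, exact test FDR = 0.990). The other epiblast genes with most reads or the largest change, DPPA3, POU5F1, LIN28A and PRDM14, had log2 fold changes of -0.28, -0.24, -0.32 and -1.56, with exact test FDRs of 0.822 or more. SOX2 and SALL4, the remaining tested epiblast genes, had log2 fold changes of 0.31 and -0.06. The keratin KRT18, the trophectoderm marker with most reads, had 4178 ± 1307 CPM (SD) and 2887 ± 1062 CPM (SD), a log2 fold change of -0.54 with an FDR of 0.616. GATA2, KRT8, CDX2 and PTGS2 had log2 fold changes of -0.38, -1.10, -2.06 and -1.03, and the lowest exact test FDR among them was that of KRT8, 0.309. Of the remaining tested trophectoderm genes, TEAD4 and TFAP2C went the other way, at 0.43 and 0.21. GATA3, KRT19, IFNT2 and HAND1 had log2 fold changes of -0.48, -0.39, -0.16 and -0.11.

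Markers of cell types outside the blastocyst were read as well, since type IV collagen is also made by endothelial and stromal cells. Embryo cells may also express some of these markers, so their reads do not show maternal cells to be present. The 10 stromal and endothelial markers summed to 22.6 to 164 CPM in control and 17.5 to 62.5 CPM in methionine-rich pools, and the exact test called 0 of 5. The highest sum was that of C4.2, with at most 74.1 CPM in the other 14 pools. The collagen gene COL1A2 had 54.2% of its counts in that pool and averaged 28.8 CPM in control and 8.08 CPM in methionine-rich pools (log2 fold change -1.78, exact test FDR = 0.314). The endothelial gene PECAM1 averaged 30.1 and 29.7 CPM and was read in every pool, whereas CDH5, KDR and TEK did not reach the level required for testing. COL3A1 and LUM, with log2 fold changes of -6.49 and 5.14, had 95.4% and 93.6% of their counts in 1 pool. Leukocyte markers summed to 21.0 to 2401 CPM and 18.7 to 55.5 CPM, and 5 of 6 tested were called higher in control pools (TYROBP, LAPTM5, LCP1, NKG7 and CD53), each with its highest level in C2.1. All 5 met the level required for testing through the control pools, so their calls lend no support. Without C2.1 the exact test called 1 of these 5, NKG7 (FDR = 0.029), CD53 was not called, and TYROBP, LAPTM5 and LCP1 were below the level required for testing. CD48, the other tested leukocyte gene, averaged 27.5 and 27.3 CPM. Cumulus and granulosa markers summed to 2.64 to 69.0 CPM and 4.31 to 55.7 CPM, and oviduct and uterine epithelium markers to 55.8 to 437 CPM and 107 to 217 CPM, with 0 of 3 called in each list. Of these, CYP19A1, STAR and INHBA had log2 fold changes of 0.05, -1.21 and -3.28, and EPCAM and CDH1 of -0.27 and -0.46, while PGR was at 0 in every control pool and had 99.5% of its counts in M6.1. EPCAM, read in every pool, averaged 206 CPM in control and 171 CPM in methionine-rich pools and so made up most of its list's sum. In the same list OVGP1 averaged 0.451 and 0.716 CPM, and PAEP and FOXJ1 were at 0. The part of any of these cell types in the hypoblast values was not tested.

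Pool C3.2, not in the comparisons, differed from the other pools within the list. Its 433 GATA6 counts and 475 PDGFRA counts came to 248 CPM and 272 CPM, above all 15 pools for both genes, in a library with few reads on exons. Its 7 COL4A1 counts were 4.01 CPM, below all 15, and it held 0 counts of HNF4A, FOXA2 and LAMA1. A count of 3 in this pool corresponded to 1.72 CPM, above the HNF4A level of 11 of the 15 pools.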

How the data were processed

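The authors amplified and sequenced RNA of 16 embryo pools, aligned the reads to bosTau7 with Tophat (version 2.0.4), assembled transcripts with Cufflinks (version 2.0.2) and counted reads with HTSeq, as their processing notes and methods state. The deposited values were whole-number read counts per gene without normalization, in 22552 rows for 22358 loci. A locus listed under several names was entered once.

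Counts were divided by the pool total (CPM). Loci with summed CPM of at least 15 over 15 pools were kept (10519). Treatments were compared by the exact test of edgeR (version 4.0.16, R 4.3.3) with TMM normalization and common and tagwise dispersions, Benjamini-Hochberg adjustment over all 10519 loci, and a call at an FDR under 0.10 with a 2-fold difference. The quasi-likelihood test was run alongside, SEs are from DESeq2 (version 1.42.0), and limma (version 3.58.1) voom was an alternative. Cow means were compared by exact two-sided permutation. The code was tested on simulated data.

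The hypoblast genes and the other gene lists were chosen with earlier results of these data known. From each list the text names the called genes and those with most reads or the largest change, and for each of the 5 hypoblast genes with at least 3 counts in 8 or more pools the 3 loci with the most similar pool order, together with a few further members whose roles touch the hypoblast genes. Also named are all tested epiblast and trophectoderm markers and some low markers of the stromal, endothelial, oviduct and uterine lists. No sequence or coordinate is given, as no genome of the files' build was used here. Depth sets the precision of low genes, a few counts per pool for HNF4A. Leaving out pool C2.1 was an alternative chosen after seeing the data.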

Additional observations from a re-analysis of the deposited data

Results flagged for a closer look

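In 3 of the 12 groups tested (6 hypoblast genes in each treatment) the highest pool lay apart from the rest of its group by Dixon's criterion. Chance exceeds it in about 1 in 20 groups of normally distributed values. For skewed CPM values with many at 0 that rate does not hold and was not measured, so the 3 groups are given as description. PDGFRA stood at 186 CPM in C1.1, with the other control pools at 42.4 to 92.7 CPM. LAMA1 stood at 23.0 CPM in C4.2, with the other control pools at 0 to 2.97 CPM. FOXA2 stood at 40.5 CPM in M8.2, with the other methionine-rich pools at 0 to 0.912 CPM.

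Pool C3.2, outside the comparisons, held GATA6 at 248 CPM and PDGFRA at 272 CPM, above the control ranges of 40.9 to 157 CPM and 42.4 to 186 CPM.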

How the results depend on the processing

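The count of hypoblast genes called was 0 under all 20 alternatives, including the quasi-likelihood test blocked by pool number (replicate block, 0). In some alternatives a gene was not tested and could not be called. HNF4A was not tested without cow 1 or with the pools of a cow summed. FOXA2 was not tested without cow 8 or with a filter of 1 CPM in 7 pools. The labels do not say whether pools of the same number shared anything else across cows. Between control and methionine-rich pools, the mean correlation of deviations from the treatment mean was -0.0069 for the same number and 0.0070 for others. Such deviations sum to 0 within a treatment, which pushes these means towards opposite signs, so they cannot decide the question. Which libraries shared a sequencing lane was not given in the sources used here. With all 16 pools the log2 fold changes turned to -0.37 for GATA6, -0.44 for PDGFRA and 0.14 for LAMA1, and the differences of cow means to -3.14 CPM for GATA6 and -6.90 CPM for PDGFRA. The log2 fold change of FOXA2 was -1.64 by DESeq2, which replaced its outlying count, and that of LAMA1 was 0.0095 with the pools of a cow summed. Leaving out 1 replicate gave log2 fold changes of -0.086 to 0.78 for PDGFRA and -0.71 to 1.79 for LAMA1, and differences of cow means of -0.186 to 6.57 CPM for FOXA2 and -1.30 to 3.41 CPM for LAMA1. Genes of the other lists that were called numbered 7, but 0 by the quasi-likelihood test and 1, NKG7, without pool C2.1. The cause of these changes was not tested. Beyond these, 106 of the log2 fold changes and 60 of the differences of cow means kept their direction and their side of the threshold, and 5 of the latter lost theirs (COL4A1 4 times, HNF4A once). The summed CPM of the hypoblast genes differed by 48.7 CPM, by 31.6 CPM without PDGFRA and by 5.23 CPM with C3.2. With 15 pools and these spreads, the 95% intervals of HNF4A, LAMA1 and FOXA2 allowed differences of several-fold.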
